A study of Mus musculus with 7 samples.

Results

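Fatty acid elongases and stearoyl-CoA or front-end desaturases set the length and the double bonds of the acyl chains that the liver builds into its lipids. The genes described here are 9, chosen by name with earlier results of these data known. The set holds the elongases Elovl1, Elovl2, Elovl3, Elovl5 and Elovl6 and the desaturases Scd1, Scd2, Fads1 and Fads2. They are 9 of 32451 genes on the array and were matched to 10 probes through the RefSeq accession of each probe. The study compared liver RNA of male mice, strain C57/BJ by the labels, in 2 groups. High-fat diet (HFD) mice (n = 3) ate a high-fat diet, D12331 from ResearchDiets, and chow mice (n = 4) ate a control chow from Provimi Kliba. Feeding began at 6 weeks of age and lasted 20 weeks, so all mice were 26 weeks old. Each sample was hybridised to its own 1-colour Agilent array. The deposited data hold a scanner file per array and a table of log2 values for 1615 probes, or 1488 genes.

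In liver, an elongase adds a pair of carbons to an acyl-CoA in the endoplasmic reticulum, in a cycle completed by a keto-reductase, a dehydratase and an enoyl reductase. Scd enzymes put a double bond into saturated chains, which makes oleate and palmitoleate, and Fads enzymes add double bonds to the essential polyunsaturated chains on the way to arachidonate and docosahexaenoate. In rodent liver, many of these genes are known targets of the sterol regulatory element-binding protein SREBP-1c, of the liver X receptor, and of the PPAR nuclear receptors.

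Of the 9 genes, 6 were in the deposited table, and all 6 were listed as higher in HFD. At each of the table's 1615 probes every value of one diet lay beyond every value of the other, so the table was selected on this comparison. The separation of the groups in each gene below is therefore fixed by that selection, and the p-values are not independent evidence. Genes listed as higher made up 2.47% of all genes on the array, and 4.11% of the 19504 genes detected well above background on 2 or more HFD arrays. Genes listed as lower made up 2.12% of all genes, with none of the 9 among them. The remaining members, Elovl1, Elovl3 and Scd2, have HFD scanner levels only. The smallest absolute log2 fold change in the table was 0.33, and nothing is shown here about the diet response of these 3 genes.

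The scanner files labelled chow did not hold the values of the table's chow columns. HFD files followed their own columns with a Pearson r of at least 0.99991 across 1615 probes, and files labelled chow with r of 0.580 to 0.589. All 20 hepatocyte markers examined were well above background on all 3 HFD arrays, and 7 of the 20 were not well above background on any file labelled chow. The comparison of diets therefore uses the table alone, and the tissue of its chow columns could not be checked against scanner signals of their own. Against the HFD files, the chow columns had r of 0.910 to 0.962 over the same probes. The 75th percentile of the processed signal was 758 to 971 on the HFD arrays. The negative controls averaged 46.9 on the array of HFD replicate 1 and 29.9 to 31.4 on the others. The labels do not say which animal a sample came from, so p-values measure the spread between samples, and the small number of arrays limits the precision. In whole liver, more RNA per hepatocyte and more cells with that RNA cannot be told apart.

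Promoter windows of the 4 members in the table that had an entry in the RefSeq-based promoter table (GRCm38.p6) are shown because these genes were listed as higher together. Scd1 and Fads1 had none. Each window is the 250 bases before an annotated start, written 5′ to 3′ on the strand of the gene. Capitals mark matches, on either strand, to the GC box GGGCGG, the CCAAT box or the E-box CACGTG.
Elovl5, chr9:77917115-77917364, plus strand: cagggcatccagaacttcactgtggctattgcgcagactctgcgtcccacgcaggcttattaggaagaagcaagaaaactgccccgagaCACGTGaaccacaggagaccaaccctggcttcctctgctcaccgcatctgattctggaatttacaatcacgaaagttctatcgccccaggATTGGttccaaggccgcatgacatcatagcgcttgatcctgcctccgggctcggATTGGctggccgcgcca
Elovl6, chr3:129532136-129532385, plus strand: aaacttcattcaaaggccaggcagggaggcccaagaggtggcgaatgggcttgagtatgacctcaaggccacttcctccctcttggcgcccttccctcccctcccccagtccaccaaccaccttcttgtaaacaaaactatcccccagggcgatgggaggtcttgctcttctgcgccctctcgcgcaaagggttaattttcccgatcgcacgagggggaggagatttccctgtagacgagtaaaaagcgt
Fads2, chr19:10101504-10101753, minus strand: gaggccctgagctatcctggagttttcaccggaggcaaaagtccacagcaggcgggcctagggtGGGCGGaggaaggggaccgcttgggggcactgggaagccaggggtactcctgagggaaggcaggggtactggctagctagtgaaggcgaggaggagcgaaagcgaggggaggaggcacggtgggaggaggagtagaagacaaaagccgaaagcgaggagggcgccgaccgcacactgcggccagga
Elovl2, chr13:41220404-41220653, minus strand: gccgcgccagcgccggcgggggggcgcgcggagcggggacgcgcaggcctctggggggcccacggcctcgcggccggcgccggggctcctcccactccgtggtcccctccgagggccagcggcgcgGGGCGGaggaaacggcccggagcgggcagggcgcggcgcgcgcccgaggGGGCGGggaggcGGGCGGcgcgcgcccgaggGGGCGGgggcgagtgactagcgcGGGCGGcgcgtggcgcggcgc

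The Elovl5 window held 2 CCAAT boxes, read as ATTGG, between 71 and 67 and between 17 and 13 bases before the start, and an E-box between 161 and 156 bases before it. The Elovl2 window, which belongs to the upstream of 2 annotated starts, held 5 GC boxes, and the Fads2 window held 1. The window before the other Elovl2 start, not printed, held no match. The Elovl6 window held no match to any motif searched. The search also covered the sterol element TCACNCCAC and direct repeats of AGGTCA with a spacer of 1 base (the PPAR element) or of 4 bases (the LXR element), and found none of them in the 4 windows. Of 32851 promoter windows, 32.7% held the GC box, 33.8% the CCAAT box, 6.02% the E-box, 1.05% the sterol element, 0.0335% the PPAR repeat and 0.0152% the LXR repeat. The Elovl2 window was 87.2% G or C, against a median of 52.4% over all windows. No match says only that these letters are absent from these 250 bases.

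The elongase Elovl5, which lengthens polyunsaturated and monounsaturated acyl-CoAs, had log2 values of 16.15, 15.99 and 15.97 in the 3 HFD samples, against 14.12, 13.87, 15.29 and 14.62 in the 4 chow samples. The HFD samples were within 0.18 of each other and the chow samples ranged over 1.42, with chow replicate 3 the highest. The mean was 16.04 ± 0.10 in HFD, against 14.48 ± 0.63 in chow (SD, n = 3 and 4). The log2 fold change, HFD minus chow, was 1.56 ± 0.32 (SE; 95% confidence interval 0.80 to 2.32), a fold of 2.95. Its adjusted p of 0.0634 in limma missed the threshold of 0.05. Adjusted p-values are those of the limma model with Benjamini-Hochberg adjustment over all 32451 genes, where a gene outside the table was given a p of 1.

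Elovl2, which lengthens arachidonate and its omega-3 counterpart towards docosahexaenoate, had log2 values of 14.89, 15.16 and 15.12 in HFD, against 13.76, 14.26, 14.48 and 13.96 in chow. The lowest HFD sample lay 0.41 above the highest chow sample, again chow replicate 3. The mean was 15.06 ± 0.15 in HFD, against 14.12 ± 0.32 in chow (SD, n = 3 and 4). The log2 fold change was 0.94 ± 0.19 (SE), a fold of 1.92, and its adjusted p of 0.0566 in limma missed the threshold.

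Elovl6, the elongase that converts palmitate to stearate, had log2 values of 13.19, 12.91 and 12.86 in HFD, against 12.03, 12.15, 12.29 and 11.79 in chow. HFD replicate 1 was the highest sample, and the gap between the groups was 0.57. The mean was 12.99 ± 0.18 in HFD, against 12.07 ± 0.21 in chow (SD, n = 3 and 4). Elovl6 rose 1.89-fold in HFD, a log2 fold change of 0.92 ± 0.15 (SE; adjusted p = 0.0388 in limma).

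Scd1, the main stearoyl-CoA desaturase of adult mouse liver, had log2 values of 17.66, 17.13 and 17.45 in HFD, against 15.55, 15.40, 16.75 and 15.68 in chow. Chow replicate 3 lay 1.07 above the next chow sample, and the HFD samples were all higher than it by at least 0.38. The mean was 17.41 ± 0.27 in HFD, against 15.85 ± 0.61 in chow (SD, n = 3 and 4). The log2 fold change was 1.57 ± 0.33 (SE; 95% confidence interval 0.78 to 2.35), a fold of 2.97, and its adjusted p of 0.0669 in limma missed the threshold. Scd genes are close paralogs and the probe sequences were not used here, so cross-hybridisation between them was not tested.

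The front-end desaturase Fads1, which makes arachidonate and eicosapentaenoate, had log2 values of 13.97, 13.91 and 13.60 in HFD, against 13.13, 12.87, 12.98 and 12.95 in chow. Its chow samples ranged over only 0.26, the narrowest chow range of the 6 genes. The mean was 13.83 ± 0.20 in HFD, against 12.98 ± 0.11 in chow (SD, n = 3 and 4). Fads1 rose 1.80-fold in HFD, a log2 fold change of 0.84 ± 0.12 (SE; adjusted p = 0.0321 in limma). Fads2, which acts on linoleate and alpha-linolenate at the entry of the same route, had 12.13, 11.67 and 11.34 in HFD, against 10.66, 10.25, 10.67 and 10.08 in chow. It had the widest HFD range of the 6 genes, 0.79, with HFD replicate 1 at the top and HFD replicate 3 at the bottom. Its mean was 11.71 ± 0.40 in HFD, against 10.42 ± 0.30 in chow (SD, n = 3 and 4). Fads2 rose 2.46-fold, a log2 fold change of 1.30 ± 0.23 (SE; adjusted p = 0.0483 in limma). Fads1, Fads2 and Fads3 are direct neighbours in the RefSeq order of protein-coding genes, as are Scd1, Scd4, Scd2 and Scd3.

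**Figure D1:**
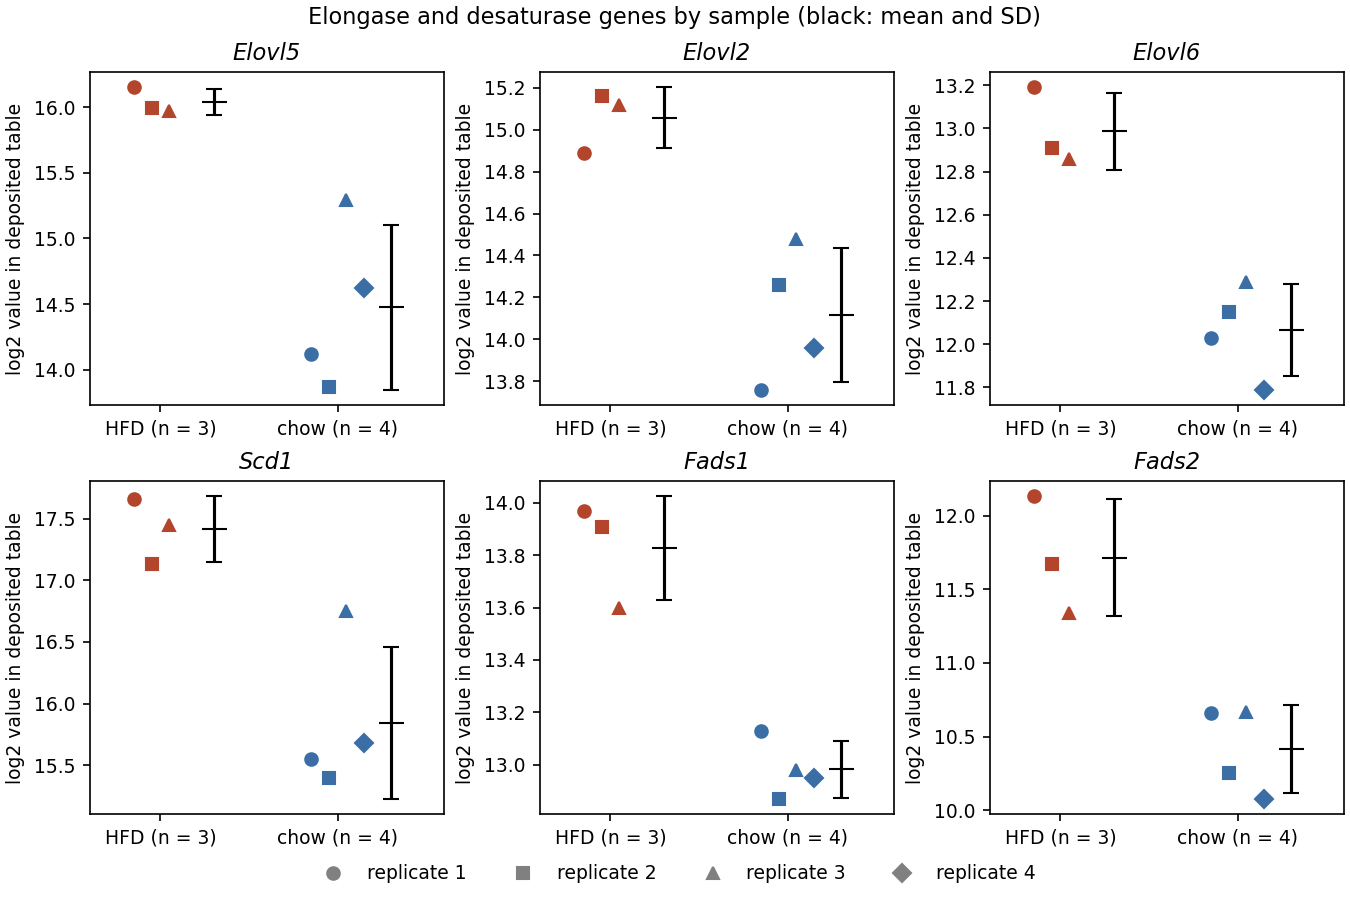
Log2 values of the 6 elongase and desaturase genes in the deposited table, HFD (3 samples, red) left of chow (4 samples, blue), with the mean and SD in black; each panel has its own vertical axis, which does not start at 0. In each panel all HFD points lie above all chow points, by 0.38 (Scd1) to 0.68 (Elovl5), a separation fixed by the selection of the table.

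Elovl6, Fads1 and Fads2 thus passed as higher, 3 of the 9 genes, where 1.05% of all genes on the array passed as higher and 0.832% as lower. Of the 19504 genes detected on HFD arrays, 1.75% passed as higher. Genes outside the table could not pass. Among genes listed as higher, 342 of 801 passed, beside 3 of the 6 members listed. No excess of calls among the members is read from these counts. The 6 log2 fold changes ran from 0.84 to 1.57 with a median of 1.12, beside a median of 0.82 over the 801 table genes higher in HFD and of 0.44 over all 1488 table genes. Scd1 and Elovl5 had the larger fitted folds but also the wider chow spread, with SDs of 0.61 and 0.63 on the log2 scale (n = 4). The confidence intervals of all 6 genes overlapped, and differences between their folds were not tested.

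Most calls were lost in fits that left out 1 sample. Counts over all genes fell in these smaller fits as well, to 0 to 265 higher and 0 to 227 lower. The lost calls therefore do not show that a particular sample set them. Without any 1 of the 4 chow samples, or without HFD replicate 1 or 2, none of the 6 genes passed in limma, with adjusted p-values from 0.0632 to 0.283. Without HFD replicate 3, Fads1 and Fads2 passed (adjusted p = 0.0271 and 0.0421 in limma) and Elovl6 did not (adjusted p = 0.0609). Scd1 had a log2 fold change of 1.87 and Elovl5 of 1.83 without chow replicate 3. The medians of the HFD columns lay 0.21 above those of the chow columns. With every column centred on its median, the log2 fold changes of the 6 genes ran from 0.63 to 1.36, and Fads1 alone passed. Fads2 (adjusted p = 0.05001 in limma) and Elovl6 (adjusted p = 0.0542 in limma) lay just over the threshold. Because the table was selected on the diet comparison, its column medians can hold part of the diet difference, which centring removes. Over all genes, 342 passed as higher and 270 as lower. Centring gave 185 higher and 605 lower, and quantile normalization 289 higher and 531 lower. All 3 HFD arrays share 1 scan day. For the chow columns of the table no scan day could be assigned, so scan day and diet cannot be told apart.

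**Figure D2:**
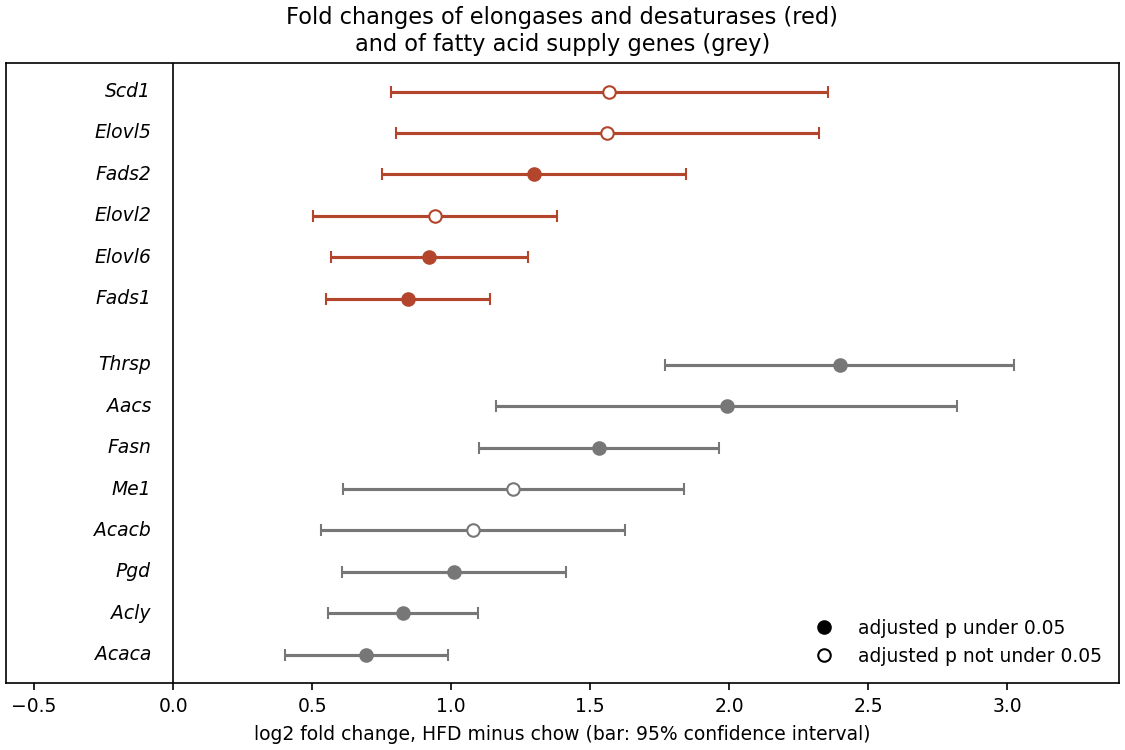
Log2 fold change, HFD minus chow, with its 95% confidence interval (horizontal axis) for the 6 elongase and desaturase genes (red) and 8 genes of fatty acid supply (grey) in the deposited table; filled points had an adjusted p under 0.05. The 6 genes lie between 0.84 (Fads1) and 1.57 (Scd1), and the supply genes between 0.70 and 2.40 (Thrsp).

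The samples did not rank the same way for every gene. Chow replicate 3 was the highest chow sample for 5 of the 6 genes, all but Fads1, and for 24.5% of the 801 table genes higher in HFD. HFD replicate 1 was the highest HFD sample for 5 of the 6, all but Elovl2, and for 61.0% of those 801 genes. Its column also had the highest median of the HFD columns (9.845, against 9.783 and 9.680). The rank depended on the scale. With scanner signal scaled to the array's 75th percentile, HFD replicate 1 stayed highest for Elovl6 and Fads2. On that scale Elovl5 and Fads1 were highest in HFD replicate 2 (log2 6.28 and 4.16) and Scd1 in HFD replicate 3 (7.74). Among 8 table genes of fatty acid supply, chow replicate 3 was the highest chow sample for 3. The part of a single sample in these ranks was not tested.

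**Figure D3:**
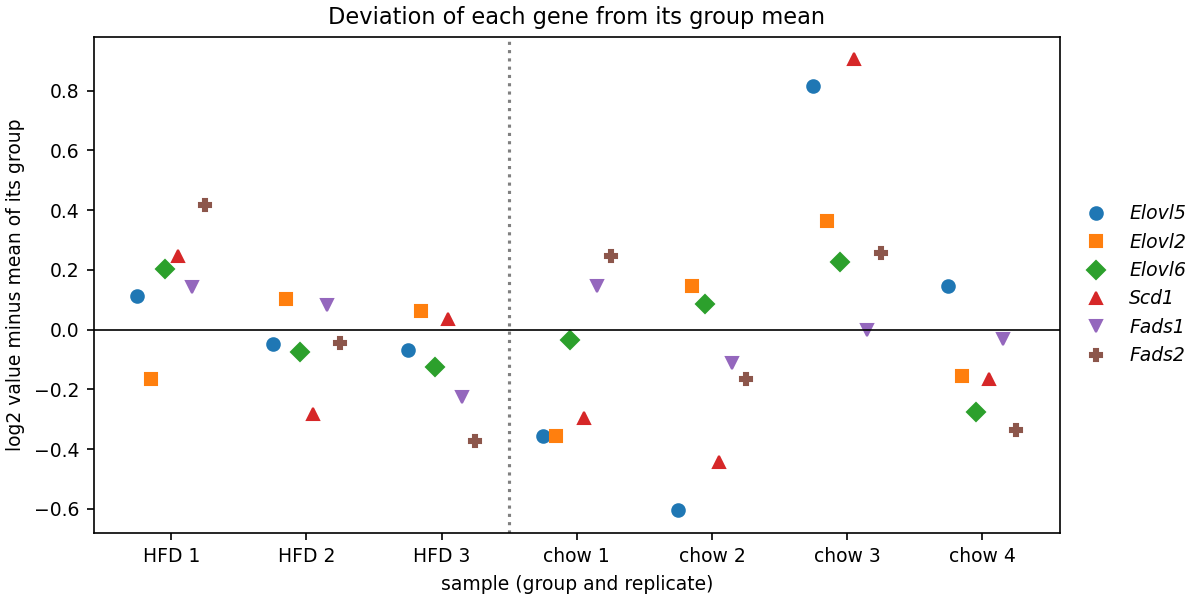
Log2 value of each of the 6 genes minus the mean of its own group (vertical axis) by sample (horizontal axis), HFD samples left of the dotted line and chow samples right of it. Scd1 and Elovl5 stand highest in chow replicate 3, where their log2 values were 16.75 and 15.29.

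Scd1 and Elovl5 had similar profiles. With each gene centred on the mean of its group means, the root mean square difference between them over the 7 samples was 0.18 on the log2 scale, which made Elovl5 the closest to Scd1 of 1166 named table genes. For Elovl5 the closest was Gngt1 at 0.14, before Scd1, with Aqp8 next at 0.26, and for Scd1 the next were Gngt1 and Ccr7 (0.23 each). Fads1 lay closest to Sirt5 (0.038), Arsa (0.058) and Marchf1 (0.061). Elovl6 lay closest to Zfp984 (0.084), Camk2n2 (0.099) and Cs (0.12), Elovl2 to Acacb (0.14), Cpt1b and Acyp2 (0.15 each), and Fads2 to Gstm2 (0.13), Emb (0.18) and Icosl (0.19). These distances include the diet difference on which the table was selected.

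The partner enzymes of elongation were largely outside the table. Of 12 measured genes of the elongation cycle and of electron supply to desaturases, 11 were well above background on all 3 HFD arrays. Cyb5r1, a cytochrome b5 reductase family gene, was the only listed one, with a log2 fold change of -0.64 that missed the threshold (adjusted p = 0.0741 in limma). None of the keto-reductase gene Hsd17b12, the dehydratase genes Hacd1 to Hacd4 and the enoyl reductase gene Tecr was listed. Of 8 measured genes among the other elongases and desaturases, none was listed.

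Of 15 measured genes that supply the acyl chains, 8 were in the table, all higher, and 6 passed. The median log2 fold change of the 8 was 1.15. Thrsp, a regulator of lipogenesis, rose 5.27-fold, Aacs, acetoacetyl-CoA synthetase, 3.97-fold and Fasn, fatty acid synthase, 2.89-fold. Me1, malic enzyme, a source of NADPH, had a fold of 2.33 that missed the threshold (adjusted p = 0.0671 in limma). Of 18 regulators of the SREBP, LXR, ChREBP and PPAR systems, Srebf1 (3.22-fold) and Pparg (2.47-fold) were listed, and both rose.

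Genes that use acyl-CoA were listed as follows. Of 16 acyl-CoA synthetase, carrier and thioesterase genes, Acot13, a thioesterase, rose 1.83-fold, while the acyl-CoA synthetase gene Acsl5, with a log2 fold change of 0.59, missed the threshold. Of 18 acyl transfer genes, Mogat1, a monoacylglycerol acyltransferase, rose 6.84-fold, while Agpat3, with a log2 fold change of 0.38, missed the threshold. Of 14 peroxisomal genes of chain shortening, only the transporter gene Abcd2 was listed. It was at least 2.92-fold higher in HFD. The fold is a bound because none of its 4 chow values reached 4.93. That level is the lowest log2 value, among the table's probes, that was well above background on the array of HFD replicate 1. The chow columns had no matching scanner file, so their own level is not known and the bound is approximate.

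Members outside the table were measured in the HFD scanner files, as processed signal and as log2 of that signal over the array's 75th percentile. Elovl3, an elongase of very long saturated and monounsaturated chains whose liver expression is known to be higher in male mice and to follow the daily cycle, had processed signals of 2686, 2232 and 10034 in HFD replicates 1, 2 and 3. On the scaled log2 axis these were 1.47, 1.56 and 3.58, so HFD replicate 3 was 4.33-fold above the lowest HFD array. The SD of 1.20 (n = 3) was larger than that of 98.6% of 19492 genes detected on HFD arrays. HFD replicate 3 was also the lowest HFD sample for the female-biased genes Cyp2b9 (10.12, 9.78 and 7.19 on the table's log2 scale) and Cyp2b13 (10.30, 9.42 and 6.29). HFD replicate 3 was the lowest HFD sample for 62.8% of the 801 table genes higher in HFD, so its place there was the common one. Whether these genes and Elovl3 move together was not tested.

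Scd2, the stearoyl-CoA desaturase isoform that is prominent in mouse brain, had processed signals of 1396, 589 and 523 in HFD replicates 1, 2 and 3, and scaled log2 levels of 0.52, -0.36 and -0.68. HFD replicate 1 was 2.31-fold above HFD replicate 3, and the SD of 0.62 (n = 3) was larger than that of 92.2% of genes. Summed scaled signals of the marker lists, given on the log2 scale for HFD replicates 1, 2 and 3, did not all run the same way. The macrophage and Kupffer cell list had 6.96, 5.97 and 5.96, and all 13 of its genes were highest in HFD replicate 1. The cholangiocyte list had 3.09, 2.03 and 1.25, of which Spp1 alone had 2.98, 1.81 and 0.93, and 4 of its 6 genes were highest in HFD replicate 1. The stellate cell list had 6.75, 6.65 and 6.29, of which Dcn alone had 6.30, 6.32 and 6.04, and 7 of its 10 genes were highest in HFD replicate 1. HFD replicate 1 was the lowest array for the hepatocyte list (12.33, 12.87 and 12.82), the lymphocyte list (3.49, 4.19 and 4.15), the blood cell list (5.68, 6.29 and 6.28) and the adipocyte list. By gene, that array was highest for no hepatocyte gene, 5 of 8 lymphocyte, 2 of 6 blood cell and 5 of 10 adipocyte genes. In the lymphocyte list Cd4 alone had 3.099, 3.985 and 3.941, and in the adipocyte list Car3 alone had 7.635, 7.881 and 7.861. The endothelial list was highest in HFD replicate 2, at 5.23. Their part in the Scd2 levels was not tested.

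Elovl1, which lengthens saturated and monounsaturated chains for sphingolipids, was measured by 2 probes. The brighter gave 26517, 17129 and 21039 in HFD replicates 1, 2 and 3, and scaled levels of 4.77, 4.50 and 4.65. The dimmer gave 2692, 1563 and 1926, with scaled levels of 1.47, 1.04 and 1.20. Both probes ranked the HFD arrays in the same order, with SDs of 0.14 and 0.22 (n = 3).

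Among the listed members, the spread between HFD scanner files was smallest for Elovl5, with an SD of 0.038 that was larger than that of 4.02% of genes, and largest for Fads2, with an SD of 0.36 (76.8%). Elovl2, Elovl6, Scd1 and Fads1 had SDs of 0.25, 0.12, 0.15 and 0.15. All 9 genes were well above background on all 3 HFD arrays.

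**Figure D4:**
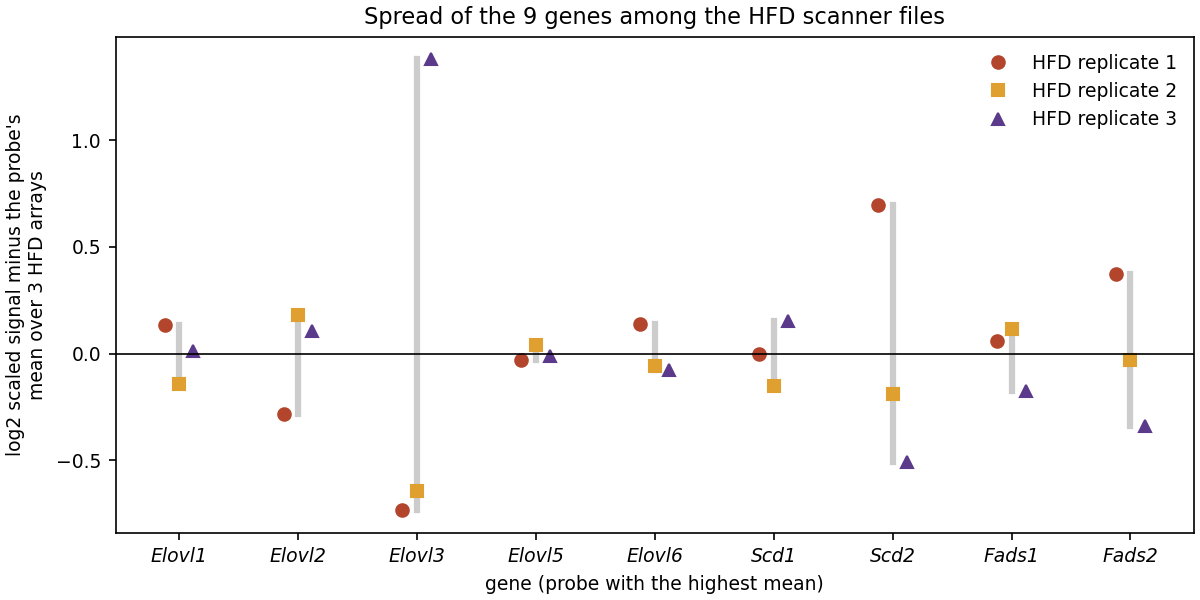
Log2 of the scaled processed signal minus the probe's own mean over the 3 HFD arrays (vertical axis) for the 9 genes (horizontal axis), with a grey bar over the range. Elovl3 is high in HFD replicate 3 and Scd2 in HFD replicate 1, while the 3 arrays nearly coincide for Elovl5.

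Marker lists of liver cell types and fat were read from the same table. Among 10 adipocyte markers only Cidec was listed (10.9-fold higher in HFD), a gene that fatty liver also expresses. Of these 10, 6 were well above background on all 3 HFD arrays, among them Car3 (scaled log2 levels of 7.64, 7.88 and 7.86 in HFD replicates 1, 2 and 3), Cfd (-0.40, 3.18 and 2.47) and Fabp4 (2.24, 2.17 and 1.76). The fat cell hormone genes Adipoq and Lep were not well above background on any. The summed scaled signal of the list was 7.90, 8.11 and 8.05 on the log2 scale. That sum lay close to the Car3 levels above and was largely the signal of this gene, so it is not read as a level of fat cells. Of 13 macrophage markers, Itgam (1.75-fold), Ccr2 and Gpnmb (at least 5.86-fold) were listed and passed as higher. The fitted fold of Ccr2 was 5.09, with 1 of its 4 chow values under the level of 4.93 named above, so it is less certain. Of 10 stellate cell and fibroblast markers, Col1a2, Col3a1 and Dcn were listed as higher (log2 fold changes of 0.64 to 1.61) and did not pass, and of 6 blood cell markers Pf4 was likewise listed. No endothelial, cholangiocyte or lymphocyte marker was listed (8, 6 and 8 measured). Of 20 hepatocyte markers, Serpina1a passed as lower and Cps1, listed as lower, did not pass. Their part in the folds of the elongases and desaturases was not tested.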

How the data were processed

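Cy3-labelled liver RNA was hybridised 1 sample per array, per the labels' protocols. The authors deposited log2 values for 1615 probes; how they were normalized and selected is not given in the sources used here. The deposited scanner files give intensity values, namely the processed signal (background-subtracted per the file headers), median and background signals, and flags. Per the file headers they come from Feature Extraction 10.7.3.1; the submitters' processing notes name version 9.1.

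Probes were named through RefSeq accessions (GRCm38.p6 table, names only). Where a gene had several probes, the one with the highest mean was used. Control and outlier spots were left out. The diet comparison used limma 3.58.1 (R 4.3.3) on the table's log2 values, with variances moderated toward a prior (0.0354, 2.10 degrees of freedom) estimated between HFD arrays over 19492 genes detected on 2 or more of them, and Benjamini-Hochberg adjustment over 32451 genes. Calls used an adjusted p under 0.05. HFD scanner levels are log2 processed signal minus the 75th percentile of the array. The model was also run on simulated data, with variances drawn from its own prior and normal noise. Such data favour the model, and the outcome is not reported here. The model was fitted to all table genes, and only the genes named here are printed.

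The members and gene lists were chosen with earlier results of these data known. Named genes are all 9 members, up to 4 listed genes per pathway list with the largest fold changes, and the 3 closest table genes per listed member. Cyp2b9, Cyp2b13, Elovl4, Elovl7, Scd3, Degs1 and the markers Car3, Cd4, Cfd, Fabp4, Adipoq, Lep and Spp1 were named after their values were seen. The normexp alternative used the median signal, since the files hold no mean signal. Alternatives were the prior, the adjustment, probe averaging, scaling, a replicate block, leaving out each sample, and the scanner files as labelled.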

Additional observations from a re-analysis of the deposited data

How the results depend on the processing

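All 6 listed members stayed higher in HFD under each of 13 alternatives run on the table, with log2 fold changes of 0.63 to 1.87. Most of these directions were fixed in advance. The prior, the adjustment and probe averaging left the members' folds unchanged. Since the groups of each table probe do not overlap, neither leaving out a sample nor the block could reverse a member. Only centring and quantile normalization could have done so. Their calls moved more. The counts of all genes higher, all genes lower and members higher were 552, 474 and 6 with the prior from the table's own genes, and 801, 687 and 6 with adjustment over the table alone. They were 185, 605 and 1 with columns centred on their medians, and 289, 531 and 5 with quantile normalization. Averaging the probes of a gene left 348, 288 and 3. Leaving out 1 sample gave 0 to 265, 0 to 227 and 0 to 2, in fits with fewer samples. With the replicate number as a block, all 3 counts were 0 in limma, although all 1488 table genes (801 higher, 687 lower) had an unadjusted p under 0.05, the 6 members among them. The members' adjusted p-values in that blocked fit were 0.244 to 0.330. The labels do not say that a number marks a shared batch, and deviations of same-numbered samples correlated at -0.10, 0.14 and 0.03. No member was lower in any of these fits, an outcome that the selection of the table fixed except under centring and quantile normalization.

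The scanner files as labelled gave 8434 genes higher, 8319 lower, 7 members higher and 1 member, Scd2, lower with the processed signal, and 3761, 4805, 7 and 1 with normexp. Those files labelled chow do not match the table's chow columns. Among HFD scanner levels, normexp moved those of Elovl1, Elovl2, Elovl5, Elovl6 and Scd1 by more than their SD, and averaging 2 probes moved Elovl1 to 2.94. With 3 arrays, spreads within HFD are imprecise.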

Other observations

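The scanner files labelled chow held other values for these genes than the table's chow columns. Elovl2 had processed signals of 30880 to 34866 in the 3 HFD files and 192 to 265 in the 4 files labelled chow. Elovl3 had 2232 to 10034 in the HFD files, and 4.95 to 6.20 in the files labelled chow, where it was not well above background. Scd1 had 131292 to 186997 in the HFD files and 6639 to 7967 in the files labelled chow. Scd2 was the reverse, with 523 to 1396 in the HFD files and 46591 to 60536 in the files labelled chow. Elovl1 did not pass between them (log2 difference -0.08, adjusted p = 0.402 in limma).

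Other genes of the families were measured on the HFD arrays but not listed in the table. Elovl7 had scaled log2 levels of -1.40, -2.84 and -4.59 in HFD replicates 1, 2 and 3, the same order of arrays as Scd2, while Scd3 had 2.24, 1.83 and 2.23. Elovl4 was not well above background on any HFD array. Degs1, the dihydroceramide desaturase gene, varied little, with 3.25, 3.22 and 3.23.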
